A study of Mus musculus with 14 samples.

Results

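Of 4533 nuclei kept from colon muscularis, 331 met a rule for secretory-type epithelial nuclei: 262 of 2837 in the WT library and 69 of 1696 in the library labelled KO. A nucleus was kept if it held at least 300 genes and at most 5% mitochondrial RNA. It was a member if its unique molecular identifiers (UMIs, 1 per captured RNA molecule) of Muc2, Capn9, Fer1l6, Tpsg1 and Anxa13 summed to at least 2, and to at least the sum of Slc26a3, Ceacam20, Nlrp9b and Paqr5. The first sum is of secretory-type genes and the second of absorptive-type genes. The members were chosen by the UMIs of these 9 genes in the same matrices, so those values are a description here.

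The series asks what the long non-coding RNA Carmn does in visceral smooth muscle, and sampled the muscle coat of the gut of C57BL/6 mice, which was separated by hand and flash frozen. Mice carried either the genotype label Carmn iKO (KO below) or WT mTmG (WT below), mTmG being a fluorescent reporter allele of Cre recombination. The colon gave 1 library of nuclei per genotype, and bulk RNA was sequenced from 3 libraries of each genotype in colon and 3 in jejunum. The sources used here do not give the age of the mice, how Carmn was deleted, which cells a Cre was active in, whether Carmn iKO mice carry mTmG, any treatment, or whether animals were pooled.

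The mucosa is not the tissue named in the labels, so the epithelial nuclei described here are those that stayed with the muscle coat. In the colon, goblet cells arise from crypt stem cells through the transcription factors Atoh1 and then Spdef. They secrete Muc2, a gel-forming mucin that is O-glycosylated in the Golgi and released with Fcgbp, Clca1 and Zg16 to build the mucus layer. Crypt stem and progenitor cells are known for Lgr5, Ascl2, Sox9 and Ephb2, tuft cells for Dclk1 and Trpm5, and enteroendocrine cells for chromogranins and peptide hormones.

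Carmn itself was the check of the labels, and its measurements disagreed. In nuclei that met neither epithelial rule, Carmn stood at 724.5 CPM (UMIs per 1000000 UMIs of the same nuclei) in the WT library and 233.5 CPM in the library labelled KO. Bulk colon libraries labelled KO (n = 3) held 461.2, 303.9 and 717.9 CPM, and the 3 WT libraries held 251.6, 171.5 and 351.5 CPM (log2 fold change 0.94, SE 0.34, edgeR adjusted p = 0.234). In bulk jejunum the libraries labelled KO held 817.5 to 996.1 CPM and the WT libraries 205.8 to 326.2 CPM (log2 fold change 1.82, SE 0.34, edgeR adjusted p = 0.0646). Counts of whole Carmn were higher, not lower, in bulk libraries labelled KO, so every direction between genotypes below is one between labels. The sources used here do not say which part of the gene was deleted, and counts from outside it would check nothing.

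Bulk libraries held 24254905 to 44315104 counts. Kept nuclei had a median of 1579 UMIs in the WT library and 1857 in the library labelled KO. The libraries of nuclei shared 11 barcodes, and none of them was a member's. Epithelial RNA varied between bulk colon libraries: Epcam, the pan-epithelial adhesion molecule, was at 68.86 to 167.3 CPM in the libraries labelled KO, at 152.5 and 303.9 CPM in WT t1 and t6, and at 5.11 CPM in WT t7. WT t7 was thus far below the other libraries in Epcam, and the fold changes of goblet and rule genes named from bulk colon are also given without it. In bulk RNA, fewer cells of a type and less RNA per cell cannot be told apart.

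Most members were goblet-type by genes that the rule did not read. All kept nuclei were clustered without the 9 rule genes, and of 21 clusters 1 took 196 of the 262 WT members and 46 of the 69 members of the library labelled KO. It held only 5 and 2 nuclei that were not members. The genes that led it were 9030622O22Rik, 9530036O11Rik, Ano7, Spink1, Slc12a8, Clca1, A4gnt, Reg4, Gm12511 and Bcas1, of which Clca1, Reg4 and Bcas1 are on the 28-gene goblet list. It is called the goblet-gene cluster here. These genes defined the cluster, so their height in it is no separate finding. Clustering left out only the 9 rule genes, so the same holds for the other goblet-list genes in this cluster.

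The other 66 WT members and 23 members labelled KO lay in clusters that epithelial genes did not lead, apart from 3 in each library that lay in the absorptive-gene cluster. They were deep, with medians of 4098.5 and 8787 UMIs against 1385 and 1157.5 UMIs for members of the goblet-gene cluster. A median of 1.67% of their UMIs in WT came from 16 smooth muscle genes, against 0.244% in the goblet-gene cluster. The deepest member held 211613 UMIs, or 10.1% of all UMIs of the WT members, and the deepest in the library labelled KO held 17.1% of that class. No doublet caller was run, and whether the deep nuclei are droplets with several nuclei was not tested. Because deep nuclei set the sums over all members, levels are given for the goblet-gene cluster members first and for all members where the readings part.

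**Figure D1:**
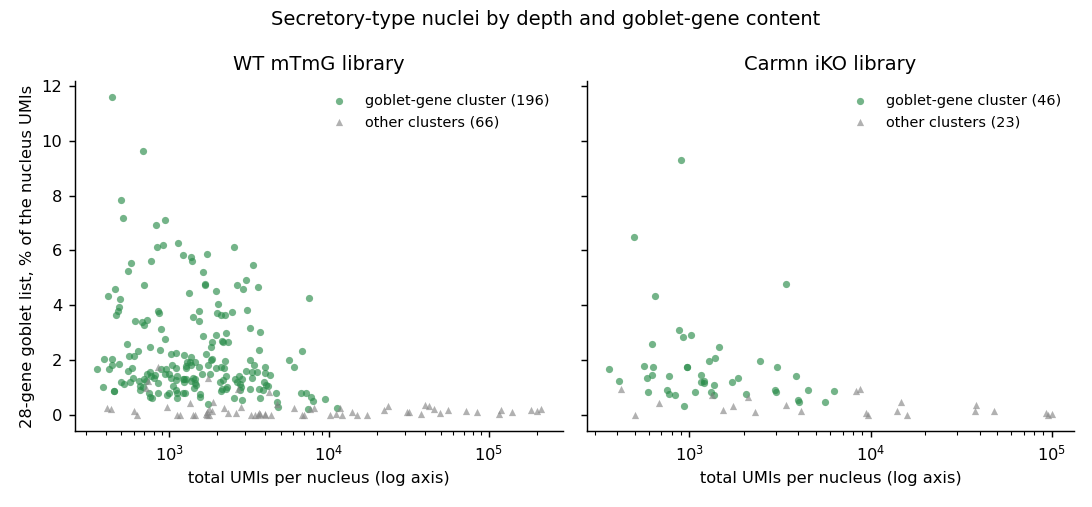
Each point is 1 secretory-type nucleus, with its total UMIs on a log axis and the percent of those UMIs that came from the 28-gene goblet list. Members of the goblet-gene cluster (196 WT, 46 labelled KO) reach 11.6% in the WT library, whereas members in other clusters (66 and 23, triangles) extend to 211613 UMIs with little goblet-list RNA.

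Muc2 carried the rule. It was found in 261 of 262 WT members, with a median of 13 UMIs and a highest value of 166, and in all 69 members labelled KO, with a median of 18 and a highest value of 79. At least 2 UMIs of Muc2 alone were present in 252 and 67 members. Fer1l6, a ferlin-family membrane protein, was found in 141 WT members and 21 labelled KO. Capn9, a calpain protease of the gut epithelium, was found in 75 and 10. Anxa13, an epithelial annexin, was found in 46 and 3 members, and Tpsg1, a membrane-anchored tryptase, in 33 and 3. A UMI of at least 2 of the 5 genes was held by 177 WT members and 27 labelled KO.

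At the edge of the rule the members were less clear. In WT, 31 members had exactly 2 rule UMIs, of which 7 lay in the goblet-gene cluster, and their goblet-list level was 891.7 CPM. Just outside, 193 nuclei had 1 rule UMI, of which 4 lay in that cluster, and their goblet-list level was 348.7 CPM. The 214 WT members with 6 or more rule UMIs stood at 5254 CPM, and 180 of them lay in the cluster. In the library labelled KO the 6 members with 2 UMIs stood at 407 CPM, the 41 nuclei with 1 UMI at 380.8 CPM and the 54 with 6 or more at 4893 CPM. Nuclei with no rule UMI held 255.1 and 290.4 CPM of goblet-list RNA. By type, smooth muscle-type nuclei carried 172.0 and 180.4 CPM and absorptive-type nuclei 2379 and 1976 CPM.

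The members made up 9.24% of kept nuclei in WT (95% exact Clopper-Pearson interval 8.20% to 10.4%) and 4.07% in the library labelled KO (3.18% to 5.12%). Absorptive-type nuclei, in which the 4 absorptive genes summed to at least 2 UMIs and to more than the 5 secretory genes, made up 1.80% and 0.826%. Both epithelial-rule classes were lower in the library labelled KO. By these rules their balance was nearly equal: secretory-type nuclei were 83.7% of 313 epithelial-rule nuclei in WT (79.1% to 87.6%) and 83.1% of 83 in the library labelled KO (73.3% to 90.5%). These intervals cover counting error only. By cluster the balance differed between the libraries. The goblet-gene cluster held 201 WT nuclei and 48 labelled KO, and the absorptive-gene cluster 212 and 98. Of the latter, 160 and 83 met neither epithelial rule, so the class that met neither rule holds epithelial nuclei too. With 1 library per genotype there was no test, and how much mucosa stayed on each dissected muscle coat cannot be told apart from genotype.

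The mucus genes set the members apart from the other nuclei. In the WT goblet-gene cluster Fcgbp, a mucin-binding protein of mucus, was at 4265 CPM (95% Poisson interval 4061 to 4477), against 8.58 CPM in nuclei that met neither epithelial rule and 48.8 CPM in absorptive-type nuclei. Agr2, the disulfide isomerase needed to fold Muc2, was at 1226 CPM, against 7.45 CPM in the neither class and no UMI in absorptive-type nuclei. Zg16, a lectin of the mucus layer, was at 561.1 CPM against 3.24 and 9.75 CPM. In the library labelled KO these 3 genes were at 2466, 1875 and 834.7 CPM in the goblet-gene cluster, and at 3.09, 4.55 and 4.0 CPM in the neither class.

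Regulators of the secretory fate followed the same pattern. Spdef was at 929.9 CPM in the WT goblet-gene cluster and 924.6 CPM in the one labelled KO, with 3.40 and 0.727 CPM in the neither class and no UMI in absorptive-type nuclei of either library. Atoh1, sparse in nuclei, had 28 and 7 UMIs in the cluster (72.7 and 89.9 CPM) and 3 and 0 UMIs in the whole neither class. Foxa3, a forkhead factor, stood at 176.6 and 141.3 CPM against 1.46 and 1.09 CPM. Gfi1, a repressor in the secretory branch, had 23 and 4 UMIs in the cluster and 2 and 3 in the neither class. Klf4, a zinc-finger factor of goblet maturation, was less selective: it was at 239.0 CPM in the WT cluster and at 331.5 CPM in WT absorptive-type nuclei.

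All 28 goblet-list genes had at least 10 UMIs in WT members, and 24 were at least 5-fold higher in WT members than in the neither class. Of all 12253 genes compared in this way, 2.11% passed 5-fold. The list's median ratio was 22.1 and that of all genes 1.07. The 4 below 5-fold were Klf4, Rep15, Tmsb10 and Xbp1. In the library labelled KO 19 of the 25 goblet-list genes with enough UMIs passed, again against 2.11% of all genes. Within the goblet-gene cluster 26 of 27 passed in WT, against 10.1%, and 19 of 20 in the library labelled KO, against 17.8%. Counts within the cluster are a description, because goblet-list genes were open to the clustering. Over absorptive-type nuclei 15 of 27 in the cluster passed in WT, against 1.91% of all genes, and 14 of 20 in the library labelled KO, against 5.19%. Over all members these counts were 7 of 28 and 3 of 25, against 1.10% and 0.520% of all genes.

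**Figure D2:**
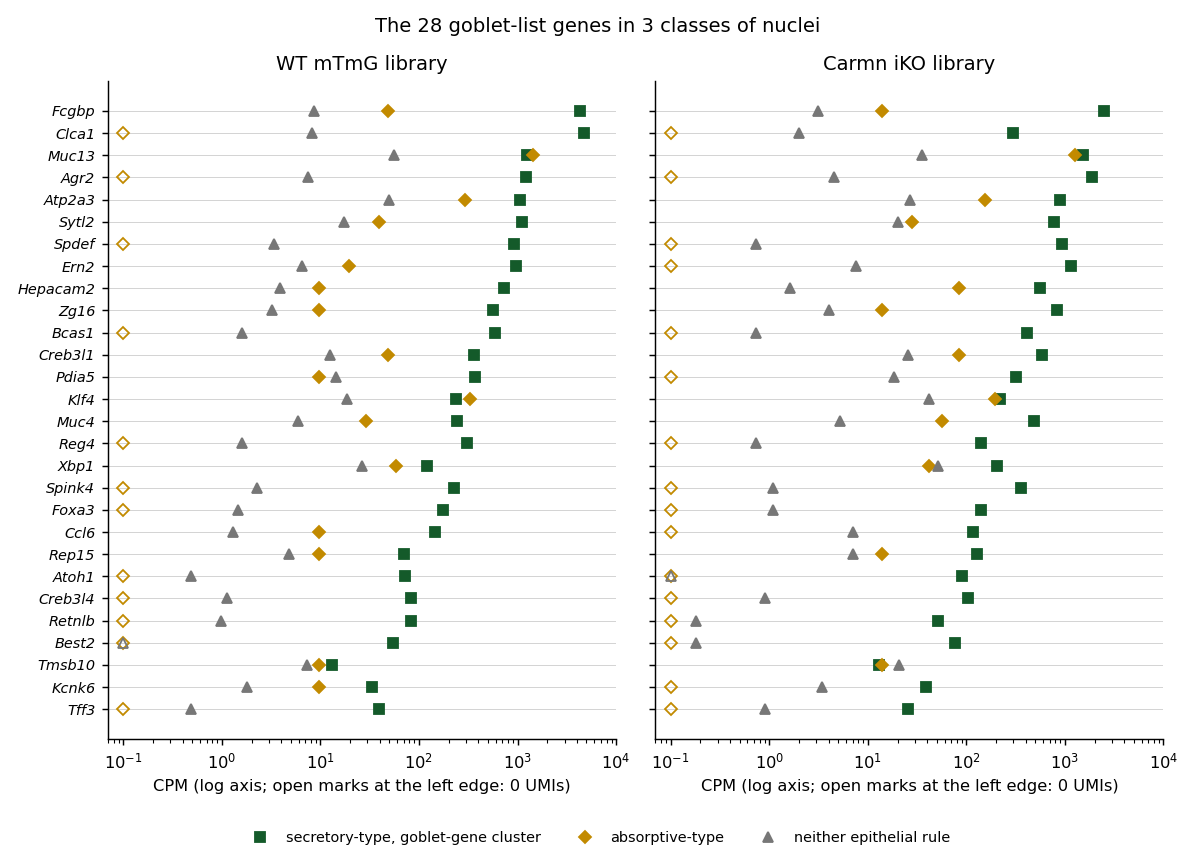
CPM of the 28 goblet-list genes on a log axis in members of the goblet-gene cluster (squares), absorptive-type nuclei (diamonds) and nuclei that met neither rule (triangles), with open marks at the left edge for 0 UMIs. In WT the squares lie to the right of the triangles for all 28 genes, and Muc13 and Klf4 are the genes whose diamonds lie to the right of the squares; in the library labelled KO Clca1 sits at 295.4 CPM against 4681 CPM in WT.

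Shares of nuclei with a UMI gave the same reading once depth was equalised by thinning each nucleus to 500 UMIs, which left out 19 of 262 WT members, 4 of 69 labelled KO, and 176 of 2524 and 98 of 1613 nuclei of the neither class. Spdef was found in 31.7% of thinned WT members (55.0% unthinned) and 27.7% of those labelled KO (59.4%). Smooth muscle-type nuclei, which should lack it, showed 0.203% and 0% after thinning (0.578% and 0% unthinned), at unthinned median depths of 1914.5 and 2459 UMIs.

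The genes with the highest ratios over the neither class were not all on the goblet list. Among 6482 genes with enough UMIs in members, the 25 highest ratios ran from 45.7 to 294.1, both libraries pooled; 5 were rule genes, 8 goblet-list genes and 12 from neither set. These 12 included Sval1, the uncharacterised 9030622O22Rik, the actin-severing protein Scin, the antimicrobial ribonuclease Ang4, the protease inhibitor Spink1, the scramblase-family member Ano7, the mucin-type transferase Galnt5 (on the glycosylation list) and the transporter Slc12a8 (on the ion transport list). Slc12a8 was at 1504 CPM in the WT cluster and 1759 CPM in the one labelled KO, against 6.80 and 4.73 CPM in the neither class and 1 and 0 UMIs in absorptive-type nuclei. Ano7 was at 394.8 and 500.8 CPM against 1.94 and 0.727 CPM. Over absorptive-type nuclei the 15 highest ratios ran from 9.80 to 55.7, and Muc2, Clca1, Fcgbp, Fer1l6 and Slc12a8 were among them. Absorptive-type nuclei held few UMIs: 7 of the 15 ratios, those of Clca1, Fer1l6 and Slc12a8 included, are lower bounds against a floor of 3 counts, so neither the order nor the range is exact.

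Kit was among those 15. It encodes the stem cell factor receptor and marks interstitial cells of Cajal and mast cells in the gut wall. It was at 506.5 CPM in the WT goblet-gene cluster (195 UMIs in 89 of 196 nuclei) and 282.5 CPM in the one labelled KO (22 UMIs in 14 of 46), against 29.25 and 0 CPM in absorptive-type nuclei and 144.7 and 146.5 CPM in the neither class, which holds the interstitial cells. After thinning, Kit was found in 18.4% and 16.3% of the cluster's members and in 1.62% and 3.01% of smooth muscle-type nuclei. Of the 9 mast cell genes, Cpa3, Fcer1a, Mcpt4, Tpsab1 and Tpsb2 had no UMI in any member, and Gata2 had 3 UMIs in the cluster. Of the 7 interstitial cell genes, 4 had enough UMIs in the WT cluster, of which 3 were above the neither class and none by 5-fold, with a median ratio of 1.48 against 1.31 for all genes. Etv1 was lower in the cluster (39.0 and 12.8 CPM) than in the neither class (209.5 and 176.7 CPM), while Ano1 was at 363.7 and 115.6 CPM against 360.3 and 344.9 CPM. Elovl6, a fatty acid elongase, was at 194.8 and 166.9 CPM against 100.4 and 80.2 CPM, and at 263.3 and 126.1 CPM in absorptive-type nuclei.

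Glycosylation genes were high beside the mucus genes in the goblet-gene cluster. The 25-gene list, fixed for mucin O-glycans but holding Fut8 as well, summed to 10640 CPM in the WT goblet-gene cluster, 3793 CPM in absorptive-type nuclei and 774.1 CPM in the neither class, and to 11370, 2929 and 866.4 CPM in the library labelled KO. Of the 18 with enough UMIs in the WT cluster, 13 were at least 5-fold above the neither class, against 10.1% of all genes, and all 18 were above it. Over all WT members 9 of 20 passed 5-fold over the neither class, against 2.11%, but none did over absorptive-type nuclei, where 8 were higher and 12 lower and the sums were 3097 CPM in members and 3793 CPM. Galnt7, which extends O-glycan initiation, was at 2151 CPM against 97.3 CPM, and Galnt3, an initiating transferase, at 205.2 CPM against 3.24 CPM. Fut8, a core fucosyltransferase of N-glycans, made up 2839 CPM of the WT sum, against 240.9 CPM in the neither class. Fut2, which makes the secretor fucose cap, was at 270.1 CPM, 48.8 CPM in absorptive-type nuclei and 4.86 CPM in the neither class. Galnt7, Galnt12, Fut2 and Fut8 also passed 5-fold over absorptive-type nuclei in WT.

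The secretory pathway list stood less far above the other nuclei. Its 31 genes summed to 4595 CPM in the WT cluster and 6177 CPM in the one labelled KO, against 1365 and 1894 CPM in the neither class. Ern2, the epithelial form of the unfolded protein sensor, was at 955.9 and 1143 CPM against 6.475 and 7.64 CPM. Creb3l1, a membrane-bound factor of secretory capacity, was at 363.7 and 590.7 CPM against 12.6 and 25.8 CPM. Xbp1, the broadly used effector of the same pathway, was at 119.5 and 205.5 CPM against 26.2 and 52.0 CPM. In the WT cluster 5 of 25 genes with enough UMIs passed 5-fold, namely Ern2, Creb3l1, Atf4, Herpud1 and Kdelr3, against 10.1% of all genes. Between the libraries, 25 of 26 genes of this list were higher in the cluster labelled KO than in the WT cluster, with a median ratio of 1.34 against 0.957 for all genes, and 1, Sec23b, passed 2-fold, against 9.09% of all genes.

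Crypt genes separated the members from other nuclei far less than goblet genes did. The 24-gene crypt list summed to 2816 CPM in the WT goblet-gene cluster (2651 to 2988), 2448 CPM in absorptive-type nuclei and 1649 CPM in the neither class, and to 3082 (2704 to 3498), 2789 and 1444 CPM in the library labelled KO. Over all WT members 9 of 20 genes with enough UMIs were higher than in the neither class and 11 lower, and 1, Sox9, passed 5-fold, against 2.11% of all genes. The list's median ratio was 0.908 and that of all genes 1.07. In members labelled KO 9 of 15 were higher, with medians of 1.66 and 1.07. Within the WT cluster 8 of 13 were higher and 3 (Sox9, Prom1 and Rnf43) passed 5-fold, against 10.1%, with medians of 1.81 and 1.31.

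A few crypt genes were well above the other nuclei. Slc12a2, a chloride-loading cotransporter of secretory crypt cells, was at 955.9 CPM in the WT cluster and 1323 CPM in the one labelled KO, against 165.8 and 294.3 CPM in absorptive-type nuclei and 226.9 and 205.5 CPM in the neither class. Sox9, a progenitor factor, had 27 and 6 UMIs in the cluster (70.1 and 77.1 CPM, against 3.89 and 5.09 CPM). Ephb2, a receptor that grades along the crypt, was at 239.0 and 231.2 CPM against 54.2 and 51.6 CPM. Lrig1, a progenitor gene, was at 374.0 and 513.7 CPM against 206.4 and 123.3 CPM. Prom1 and Rnf43 were at 205.2 and 181.8 CPM in the WT cluster, but at 448.6 and 146.3 CPM in WT absorptive-type nuclei. Ephb3, Axin2 and Tnfrsf19 were above the neither class too, at 20.8, 18.2 and 39.0 CPM from 8, 7 and 15 UMIs. Znrf3, Lgr4, Rgmb, Cd44, Clca3b, Kcnq1, Cdca7 and Nkd1 were below it in the WT cluster, with Znrf3 at 127.3 against 242.2 CPM and Cd44, an adhesion receptor of crypt bases and stroma, at 62.3 against 141.3 CPM. Of these, Clca3b and Kcnq1 were among the leading genes of the absorptive-gene cluster, of which 160 WT nuclei lay in the neither class. For them the neither class is not a non-epithelial reference.

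Lgr5 and Ascl2, the defining stem cell genes, were not detected there. Lgr5 had no UMI among 384978 UMIs of the WT cluster or 77870 of the one labelled KO, and its 10 and 2 UMIs in members all came from other clusters. Ascl2 had no UMI in any member. Smoc2, another stem cell gene, had 5 and 3 UMIs in the cluster and was more abundant in the neither class, at 39.0 and 140.9 CPM. With these totals a count of 0 allows up to 3 counts, or 7.79 CPM in the WT cluster and 38.5 CPM in the one labelled KO, for counting error only.

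Proliferation genes were sparse and concentrated. The 28 genes summed to 597.4 CPM in the WT cluster (522.7 to 679.8) and 269.7 CPM in the one labelled KO (166.9 to 412.2). Absorptive-type nuclei held 536.3 and 210.2 CPM and the neither class 256.9 and 456.6 CPM. The cluster was thus above the neither class in WT and below it in the library labelled KO. Top2a, a mitotic topoisomerase, had 37 UMIs in 9 of 196 WT nuclei and none in 46 labelled KO. Mki67 had 7 UMIs in 6 WT nuclei and none labelled KO. At 9 of 196, a like share among 46 nuclei labelled KO was not shown to be absent.

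Tuft and enteroendocrine genes mark the other secretory lineages, and their sums in the goblet-gene cluster were below those of the neither class. Gene by gene, the reading parted over all members. Of 7 tuft genes with enough UMIs in WT members, 5 stood above the neither class, none by 5-fold, and 2 below it. The tuft list's median ratio was 1.02, against 1.07 for all genes. The 4 such enteroendocrine genes split 2 and 2. In members labelled KO, 4 of 6 tuft genes and the 1 enteroendocrine gene stood above it. The 16 tuft genes summed to 88.3 CPM in the WT cluster and 0 UMIs in the one labelled KO, against 303.7 and 487.3 CPM in the neither class, where Dclk1 and Ptgs1 made up most of it. The 20 enteroendocrine genes summed to 70.1 and 38.5 CPM against 352.1 and 216.2 CPM, and 10 of them had no UMI in any WT member. Chga, the chromogranin, had 6 and 1 UMIs in members and none in the cluster. The 36 absorptive colonocyte genes summed to 2236 and 2324 CPM in the cluster, against 11800 and 6125 CPM in absorptive-type nuclei and 295.9 and 203.5 CPM in the neither class. Of 13 such genes with enough UMIs in the WT cluster, 12 were at least 5-fold above the neither class, against 10.1% of all genes, and 11 were below absorptive-type nuclei.

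**Figure D3:**
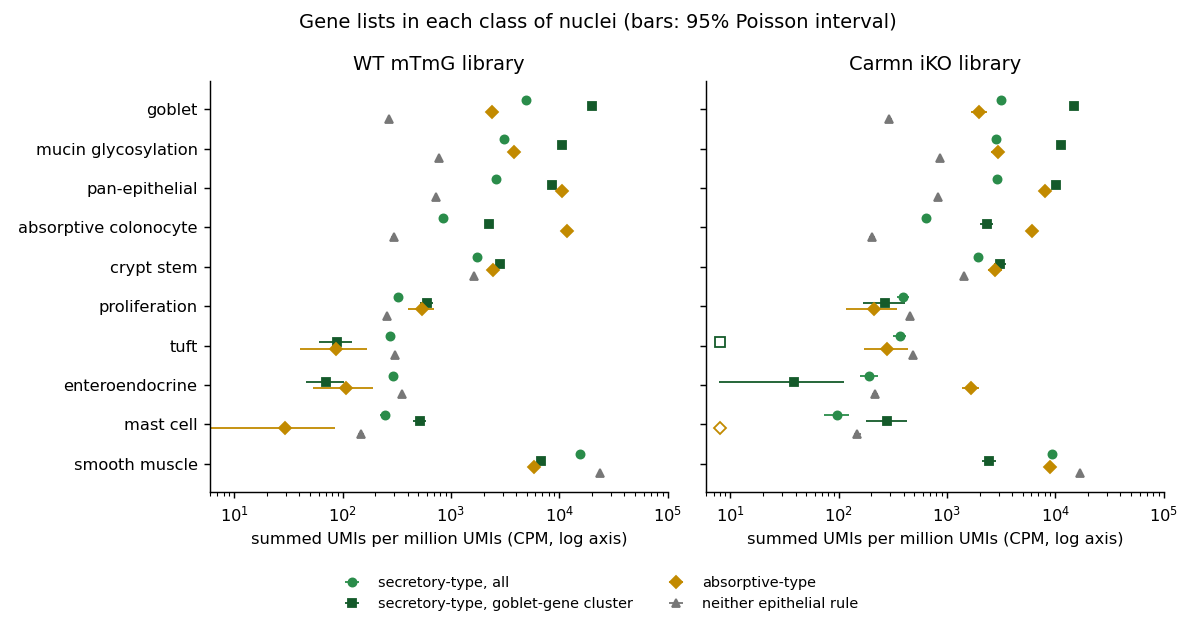
Summed CPM of 10 gene lists on a log axis, with 95% Poisson intervals, in all members, members of the goblet-gene cluster, absorptive-type nuclei and nuclei that met neither rule; open marks at the left edge stand for 0 UMIs. The goblet list separates the classes widely (20010, 2379 and 267.2 CPM in WT for the cluster, absorptive-type and neither class), and the crypt stem list little (2816, 2448 and 1649 CPM).

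Deep members pulled the sums. Over all WT members the goblet list stood at 4981 CPM and the smooth muscle list at 15410 CPM, whereas in the goblet-gene cluster they stood at 20010 and 6735 CPM. Leaving out the 26 WT and 9 KO-labelled members with the most UMIs moved the goblet list from 4981 to 16270 CPM and from 3149 to 10450 CPM. The same step moved the crypt list from 1758 to 2506 CPM and from 1923 to 2610 CPM.

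Within the cluster the library labelled KO had less Clca1, a secreted metalloprotease of the mucus layer, than the WT library. Clca1 was at 4681 CPM in WT (4467 to 4902; 1802 UMIs in 95 of 196 nuclei) and at 295.4 CPM in the cluster labelled KO (187.2 to 443.2; 23 UMIs in 7 of 46), a 15.85-fold difference. The share of nuclei with a Clca1 UMI was 48.5% (41.3% to 55.7%) and 15.2% (6.34% to 28.9%), and 39.7% and 9.30% after thinning, against 0.914% and 0% in thinned smooth muscle-type nuclei. Over all members the fold was 14.9. In the neither class, which held 5 WT nuclei and 1 labelled KO of the goblet-gene cluster, Clca1 was at 8.26 and 2.0 CPM.

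Most other goblet genes differed less between the libraries. Muc2, a rule gene, was at 8582 CPM in WT and 14220 CPM in the cluster labelled KO, and Spdef at 929.9 and 924.6 CPM. Fcgbp was at 4265 and 2466 CPM (1.73-fold), and Reg4, a secreted lectin, at 309.1 and 141.3 CPM (2.19-fold, 119 and 11 UMIs). Ang4 had 149 UMIs in WT (387.0 CPM) and none in the cluster labelled KO, at least 10.05-fold lower against a floor of 3 counts. Its near-identical family copies make its counts uncertain. St3gal4, which adds sialic acid caps, was at 1239 and 205.5 CPM, a 6.03-fold difference. Of the 27 goblet-list genes with enough UMIs, Clca1 and Reg4 were at least 2-fold lower in the library labelled KO and Muc4 at least 2-fold higher, against 6.52% and 9.09% of all genes in those directions. A count of 2 of 27 is near the first background. Over all members Clca1 and Kcnk6 of 28 were at least 2-fold lower in the library labelled KO and none was higher, against 4.85% and 8.17% of all genes.

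The genes with the widest folds in the cluster were often not epithelial. The 5 lowest in the library labelled KO were Kcnip4, Foxp2, Cacnb2, Dmd and Clca1, among 2727 genes with at least 40 UMIs. Kcnip4, at 3011 and 64.2 CPM in the cluster, was at 12290 and 5797 CPM in the neither class, and Dmd, the dystrophin gene, was at 1439 and 89.9 CPM against 7008 and 4779 CPM. Foxp2 and Cacnb2 were also more abundant in the neither class than in the cluster. The smooth muscle list was at 6735 CPM in the WT cluster and 2440 CPM in the one labelled KO. The part of such RNA in these folds was not tested. Of these 5 genes only Clca1 was less abundant in the neither class than in the cluster, in both libraries.

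The 5 highest in the library labelled KO were Rims2, Hyou1, Iigp1, Tc2n and Fpgt. Rims2, a vesicle-release scaffold, had 37 UMIs in 14 of 46 nuclei against 11 UMIs in 6 of 196, and was at 204.9 and 219.7 CPM in the neither class. Hyou1, a chaperone of the endoplasmic reticulum, was at 231.2 against 59.7 CPM, from 18 and 23 UMIs. Over all members, Ctla2a, Sgcz, Gm30613, Mgat4c and Lingo2 had the highest ratios, and single nuclei carried several of them: 591 UMIs of Sgcz lay in 4 nuclei and 480 of Lingo2 in 2. Ang4, Clca1, Dpp10, Cyp2c55 and Dpf3 had the lowest.

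The WT goblet-gene cluster itself split by Clca1. A nucleus with a Clca1 UMI had a median of 1599 UMIs in all and one without 1273 UMIs, so the split also followed depth. Fcgbp was at 8140 CPM in the 95 nuclei with Clca1 and 559.0 CPM in the others, Zg16 at 1041 and 101.6 CPM, Ang4 at 765.1 and 25.4 CPM, and Fer1l6 at 3315 and 320.2 CPM. Klf4 and Bcas1 were higher with Clca1 too, at 403.8 against 81.3 CPM and 993.6 against 213.5 CPM. Muc2 was at 8331 and 8823 CPM, Hepacam2 at 722.6 and 726.8 CPM and Reg4 at 297.5 and 320.2 CPM, so these 3 hardly separated the nuclei.

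Nuclei without Clca1 held more of another set. Gne and Gfpt1, which make the sugar precursors of sialic acid and of UDP-N-acetylglucosamine, were at 2074 and 2658 CPM without Clca1 and 621.6 and 876.7 CPM with it. Slc35a3, a Golgi transporter of UDP-N-acetylglucosamine, was at 1062 and 334.7 CPM. Spdef was at 1301 and 541.9 CPM, Creb3l1 at 467.6 and 255.0 CPM, and the epithelial ETS factor Ehf at 843.6 and 201.9 CPM. Etv5, another ETS factor, was at 340.5 CPM without Clca1 and 26.6 CPM with it. Kit was at 630.2 and 377.2 CPM and Slc12a8 at 2038 and 945.7 CPM. Of 13 crypt genes with enough UMIs, 9 were higher without Clca1, and Ephb2, Sox9 and Tnfrsf19 were at least 3-fold higher, against 3.47% of all genes. All 7 proliferation genes with enough UMIs were higher with Clca1, 4 of them at least 3-fold, against 3.72% of all genes. Proliferation RNA was concentrated (above), with any UMI of the list in 63 of 196 nuclei. How few nuclei set these ratios was not tested, so they do not describe the nuclei with Clca1 in general.

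The same contrast was read in the library labelled KO, whose counts did not choose these genes. Among 1510 genes with at least 60 UMIs, the 15 highest ratios with Clca1 in WT ran from 5.86 to 30.1, and 12 of the 15 went the same way between the 7 nuclei with Clca1 and the 39 without in the library labelled KO, where 40.7% of the 1510 genes did. The 15 lowest were 3.34 to 12.8-fold lower with Clca1 in WT. Among the nuclei labelled KO 12 of these 15 had no UMI in the 7 with Clca1, as 24.7% of the 1510 genes did, so for them a direction says little. Fcgbp was at 20620 CPM with Clca1 and 386.4 CPM without, and Zg16 at 4749 and 386.4 CPM. Etv5 had no UMI among 8001 UMIs of the 7 nuclei and 23 UMIs among 69869 of the others. Ang4 had none in either set there, so its direction could not be read. Counts in the 7 nuclei were few, and the intervals in the plot cover counting error only.

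**Figure D4:**
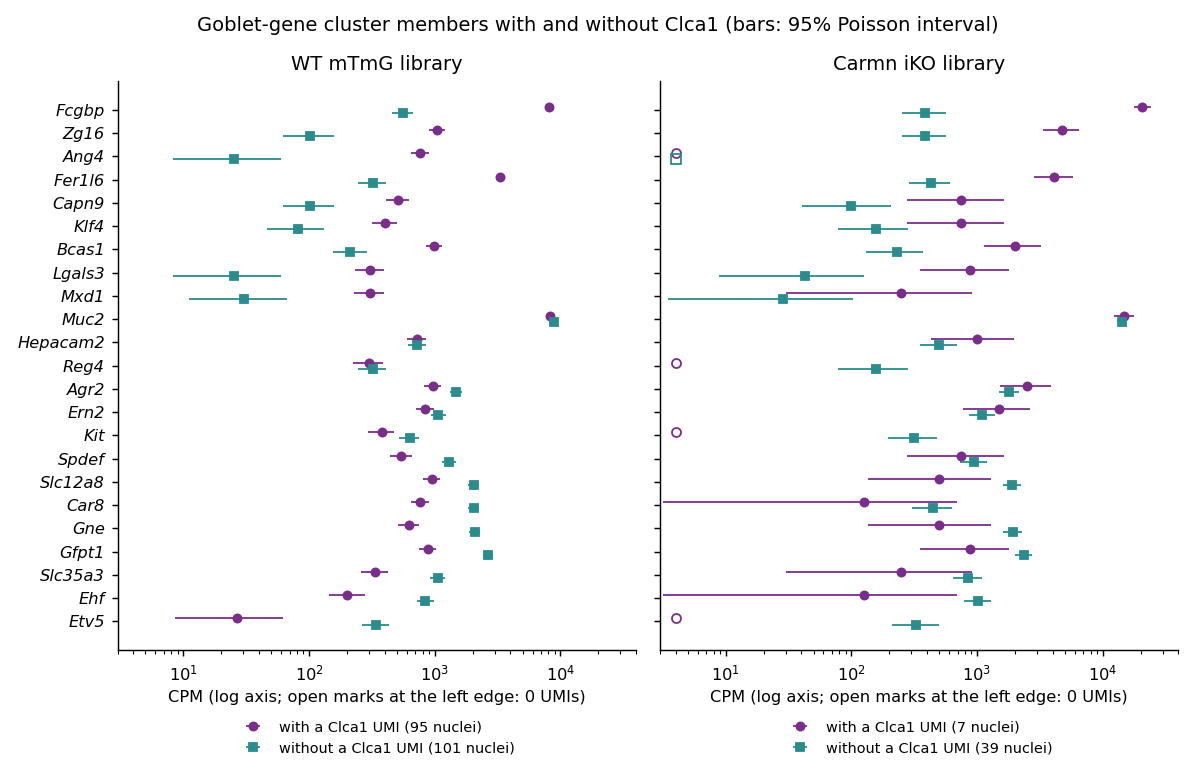
CPM of 23 genes on a log axis, with 95% Poisson intervals, in goblet-gene cluster members with a Clca1 UMI (circles; 95 of 196 WT, 7 of 46 labelled KO) and in the others (squares), with open marks at the left edge for 0 UMIs. From Fcgbp to Mxd1 the WT circles lie to the right of the squares, at Muc2, Hepacam2 and Reg4 they lie close together, and from Agr2 to Etv5 the squares lie to the right.

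Chromatin of the same nuclei was not read by the rule, and regions at goblet-list genes separated the members less than the RNA of those genes. Regions were called by the authors per library, 35003 in WT and 26493 in the library labelled KO, so each library is described within itself. Counts in regions in or up to 2000 bases before the 28 goblet-list genes, of which 13 had a region in WT and 12 in the other library, were 1056 CPM of region counts in the WT goblet-gene cluster (908.2 to 1222) against 686.7 (652.2 to 722.5) in the neither class. In the library labelled KO they were 753.2 (460.0 to 1163) against 532.9 (495.8 to 572.1). Pan-epithelial genes stood at 1185 against 515.7 in WT and 1054 against 397.9 in the library labelled KO. Crypt genes were at 1167 against 1134 in WT and 1469 (1044 to 2008) against 1094 in the library labelled KO. Smooth muscle genes were at 887.2 against 1243 and at 602.5 against 998.7. The readings parted over all members labelled KO. There smooth muscle genes were at 1061 (877.2 to 1271), crypt genes at 979.1 (803.2 to 1182) and pan-epithelial genes at 453.3 (336.4 to 597.6). These intervals hold the values of the neither class. Over all WT members the lists were at 1030, 1147 and 927.4, on the same side of the neither class as the cluster. In WT the highest ratio among regions open in at least 10% of members was 2.50, for a region of the Ugt1a cluster (chr1:88220077-88220990) that was open in 27 of 262 members, 6 of 51 absorptive-type nuclei and 55 of 2524 nuclei of the neither class. The highest in the library labelled KO was 7.86, for a region (chr14:91508814-91509671) open in 7 of 69 members, none of them in the goblet-gene cluster, and in 15 of 1613 nuclei of the neither class. No goblet-list or rule gene lay at any of the 20 regions with the highest such ratios in either library.

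Single start sites of secretory genes were open in few nuclei. Members held more region counts per nucleus on average (1667 against 857.4 in the neither class in WT, 1599 against 886.4 in the library labelled KO), and 87.8% of all 10255 regions over a start site in WT were open in a larger share of members, and 62.8% of 8547 in the library labelled KO. For the goblet and glycosylation lists together these were 18 of 20 and 8 of 13, near those shares. As CPM of region counts, 14 of the 20 were higher in members in WT, against 37.4% of all start regions, and 5 of 13 in the library labelled KO, against 30.3%. In that library the Foxa3 start (chr7:19023222-19023798) was open in 0 of 69 members and 37 of 1613 nuclei of the neither class. The region next to it, upstream of the start (chr7:19023801-19024824), was open in 10 of these members and 62 of these other nuclei (14.5% and 3.84%). In WT the region over the Foxa1 start (chr12:57546290-57547108) held a fragment in 17 of 262 members, 14 of them in the goblet-gene cluster, and in 23 of 2524 nuclei of the neither class (6.49% and 0.911%). Foxa1, a pioneer forkhead factor of endoderm, had 12 UMIs in the WT cluster and 6 in the neither class. The region over the Fcgbp start (chr7:28070383-28071476) was open in 11 members and 14 nuclei of the neither class (4.20% and 0.555%). Over the Galnt3 start (chr2:66124627-66125347) the counts were 9 and 17, and over those of Ern2 and Creb3l1 8 and 16, and 11 and 22. Of 51 absorptive-type nuclei in WT, 2 were open at the Fcgbp start (3.92%), near the share of members. The Foxa1 and Ern2 starts were open in 1 absorptive-type nucleus each, and those of Galnt3 and Creb3l1 in 0. A region inside Muc2 (chr7:141703651-141704515), 13311 bases past its start, was open in 10 members and 4 nuclei of the neither class (3.82% and 0.158%). It was open in 0 of 51 absorptive-type nuclei. In the library labelled KO a like region in Muc2 was open in 1 of 69 members and 2 of 1613 nuclei of the neither class. That over the Slc12a8 start (chr16:33517157-33518142) was open in 4 and 15. The other WT regions in rule genes showed no such excess. Those in Capn9, Fer1l6 and Anxa13 were open in 0, 0 and 2 members and in 4, 11 and 29 nuclei of the neither class. Another in Muc2 was open in 1 and 5. Together the WT regions of the rule genes were at 61.8 CPM of region counts in members (40.75 to 89.96). They were at 116.7 in the goblet-gene cluster (71.31 to 180.3) and 49.4 in the neither class.

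The 250 bases before the start of Muc2, which carried the rule, and of Fcgbp, Foxa1 and Galnt3, whose start regions were open in members, are shown 5′ to 3′ on the gene's strand, from RefSeq (GRCm38.p6). Capitals mark matches, on either strand, to the letters TGTTTNC (a forkhead motif), CAGNTG (an E-box) and GGGNGTG (a KLF motif), which are present in 17.8%, 44.8% and 26.1% of 32851 such windows. Ern2, Creb3l1 and Clca1 were not in the table used.
Muc2 (chr7:141690090-141690339, plus strand): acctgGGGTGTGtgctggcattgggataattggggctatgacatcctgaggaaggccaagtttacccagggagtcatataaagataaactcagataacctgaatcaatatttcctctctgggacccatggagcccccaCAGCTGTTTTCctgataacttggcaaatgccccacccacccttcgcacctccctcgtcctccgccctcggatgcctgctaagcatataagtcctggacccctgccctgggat
Fcgbp (chr7:28070986-28071235, plus strand): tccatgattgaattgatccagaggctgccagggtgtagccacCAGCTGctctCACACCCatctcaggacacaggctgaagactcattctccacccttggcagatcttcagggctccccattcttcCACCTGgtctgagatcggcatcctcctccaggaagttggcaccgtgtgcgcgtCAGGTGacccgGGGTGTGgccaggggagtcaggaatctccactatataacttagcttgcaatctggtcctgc
Foxa1 (chr12:57546112-57546361, minus strand): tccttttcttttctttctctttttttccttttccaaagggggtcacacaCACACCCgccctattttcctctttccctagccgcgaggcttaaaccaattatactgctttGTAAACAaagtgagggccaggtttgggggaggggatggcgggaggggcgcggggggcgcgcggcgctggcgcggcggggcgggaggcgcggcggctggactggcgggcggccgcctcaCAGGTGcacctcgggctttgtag
Galnt3 (chr2:66124794-66125043, minus strand): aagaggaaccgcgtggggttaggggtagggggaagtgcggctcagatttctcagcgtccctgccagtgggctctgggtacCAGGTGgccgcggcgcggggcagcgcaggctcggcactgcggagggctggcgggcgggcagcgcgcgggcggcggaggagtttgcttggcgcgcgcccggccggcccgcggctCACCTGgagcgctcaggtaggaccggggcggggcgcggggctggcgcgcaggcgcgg
The Muc2 window held 1 match of each motif, with the E-box and the forkhead match overlapping. The Fcgbp window held 3 E-box and 2 KLF matches, that of Foxa1 1 of each motif, and that of Galnt3 2 E-box matches. The open regions covered all 250 bases of the Fcgbp and Galnt3 windows and 72 bases of that of Foxa1, and none of that of Muc2. Start regions were placed by GENCODE gene starts, and the Foxa1 region does not cover the RefSeq start. Its 72 bases are those furthest from that start. The forkhead and E-box matches of Foxa1, 141 and 23 bases before that start, lie outside the region. A match is a description of the letters and does not show binding.

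Bulk colon RNA was a measure of the same genes that the rule did not use. In edgeR's quasi-likelihood test over 20886 genes, 81 genes passed in colon (0.388%; 24 higher and 57 lower in libraries labelled KO), 45 in jejunum (0.215%) and none in the difference between the tissues (0%; 869 at an unadjusted p under 0.05, and 37 by DESeq2). Nothing says that the 3 libraries of a group came from separate animals, so these p values measure only the spread between the libraries, which may be technical. None of the 28 goblet-list genes passed in colon, in jejunum or in the difference, and none of the 5 rule genes. The goblet list's median log2 fold change was -0.18 in colon, with 12 genes higher and 16 lower, and 0.40 in jejunum, with 21 higher and 7 lower.

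Muc2 was at 406.7, 674.4 and 1648 CPM in bulk colon labelled KO and at 607.8, 1280 and 23.6 CPM in the WT libraries t1, t6 and t7. The groups overlapped, and WT t7 was the low one (log2 fold change 0.51, SE 1.12, edgeR adjusted p = 0.891; -0.027 and 0.993 without WT t7). Clca1 was at 89.3, 49.65 and 93.5 CPM in the libraries labelled KO and at 547.5, 1072 and 11.2 CPM in WT. Both epithelium-rich WT libraries were above all 3 labelled KO, and WT t7 below them (log2 fold change -2.81, SE 1.28, edgeR adjusted p = 0.348; -3.37 and 0.170 without WT t7). Anxa13 was at 0.912, 0.243 and 0.304 CPM against 9.61, 5.41 and 0.0780 CPM (log2 fold change -3.34, SE 1.10, edgeR adjusted p = 0.207), and it passed without WT t7 (edgeR adjusted p = 0.0339) and by DESeq2 (adjusted p = 0.0139). Fcgbp was at 483.6, 282.2 and 614.2 CPM against 1270, 2303 and 40.6 CPM (log2 fold change -1.39, edgeR adjusted p = 0.554; -1.94 and 0.137 without WT t7).

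Of the other epithelial lists in bulk colon, single genes passed, and none of those named here did when the colon libraries were fitted alone. Cldn15, a pore-forming claudin, was lower in libraries labelled KO (12.7 ± 2.14 against 48.5 ± 7.57 CPM, SD, n = 3 each; log2 fold change -1.93, edgeR adjusted p = 0.0467, and 0.114 in colon alone). Smoc2 was the one crypt list gene that passed, higher in libraries labelled KO (161.2 ± 12.6 against 75.01 ± 7.03 CPM, SD, n = 3 each; log2 fold change 1.10, edgeR adjusted p = 0.0320, and 0.123 in colon alone). Smoc2 was sparse in members (above) and at 39.0 and 140.9 CPM in nuclei of the neither class. Ptgs1, from the tuft list, was higher as well (log2 fold change 1.33, edgeR adjusted p = 0.0433, and 0.200 in colon alone), and in nuclei it was at 7.79 CPM in the WT cluster and 86.1 CPM in the WT neither class. The 3 calls were also lost without KO t6, WT t1 or WT t6 of the colon (edgeR adjusted p = 0.109 to 0.1855), and without any 1 of the jejunum WT libraries (0.0555 to 0.0994).

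Because the colon libraries held unequal epithelial RNA, genes were also set against Muc2 within each library, a comparison chosen after the values were seen. Per 100 CPM of Muc2, Clca1 was at 21.95, 7.36 and 5.67 in the colon libraries labelled KO and at 90.1, 83.8 and 47.4 in the WT libraries t1, t6 and t7. All 3 labelled KO lay below all 3 WT libraries, WT t7 included, and the medians differed 11.4-fold. Fcgbp was at 118.9, 41.8 and 37.3 against 208.9, 179.9 and 172.1, again with no overlap (4.30-fold). Fer1l6 (0.638 to 1.70 against 2.31 to 2.99), Anxa13 (0.0184 to 0.224 against 0.331 to 1.58), Tpsg1, Scin, Ano7 and Ang4 also lay lower in all libraries labelled KO. With 3 libraries against 3 a two-sided exact permutation test gave p = 0.1 for each of these, the smallest it can give, so none reaches 0.05. The lowest WT value of Anxa13, 0.331, was that of WT t7, where Anxa13 was near the floor (its CPM is given above), so its lack of overlap is weak.

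Zg16, Agr2 and Spdef did not separate the groups. Zg16 was at 43.7, 20.4 and 11.1 against 32.8, 37.4 and 39.0, Agr2 at 4.38, 5.45 and 2.19 against 9.02, 11.6 and 4.96, and Spdef at 0.672, 0.669 and 1.19 against 0.513, 0.809 and 1.32 per 100 CPM of Muc2. Of the 28 goblet-list genes, 8 lay below all WT libraries (Clca1, Fcgbp, Tff3, Foxa3, Retnlb, Hepacam2, Muc13 and Muc4), against 2.87% of all 20885 genes set against Muc2 in the same way. Best2, a bestrophin channel of colonic goblet cells, lay above all WT libraries (0.859, 0.854 and 2.07 against 0.269, 0.507 and 0.165), against 0.244% of all genes.

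The count of lower genes depended on the denominator. Per Spdef it was 2 of 27 (Clca1 and Hepacam2), against 2.05% of all genes, per Hepacam2 none of 27, against 0.493%, and per Epcam 2 of 28 (Clca1 and Fcgbp), against 1.01%. Genes above all WT libraries numbered 1 per Spdef (Best2), 5 per Hepacam2 (Spdef, Atoh1, Ern2, Bcas1 and Best2) and 2 per Epcam (Atoh1 and Best2), against 0.134%, 0.780% and 0.527%. Per 100 CPM of Epcam, Clca1 was at 129.7, 63.5 and 55.9 in libraries labelled KO and at 359.0, 352.9 and 219.1 in WT. Per Epcam, Muc2 itself was higher in all libraries labelled KO (590.6, 862.4 and 985.3 against 398.5, 421.2 and 461.8). Clca1 was thus below WT without overlap per Muc2, per Spdef and per Epcam, and overlapped per Hepacam2, where WT t7 was at 1196 and the libraries labelled KO at 730.9 to 2434. Hoxb13, a homeobox gene of the distal gut, did not separate the groups per Muc2 (3.26, 4.32 and 2.75 against 2.86, 4.43 and 4.63).

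**Figure D5:**
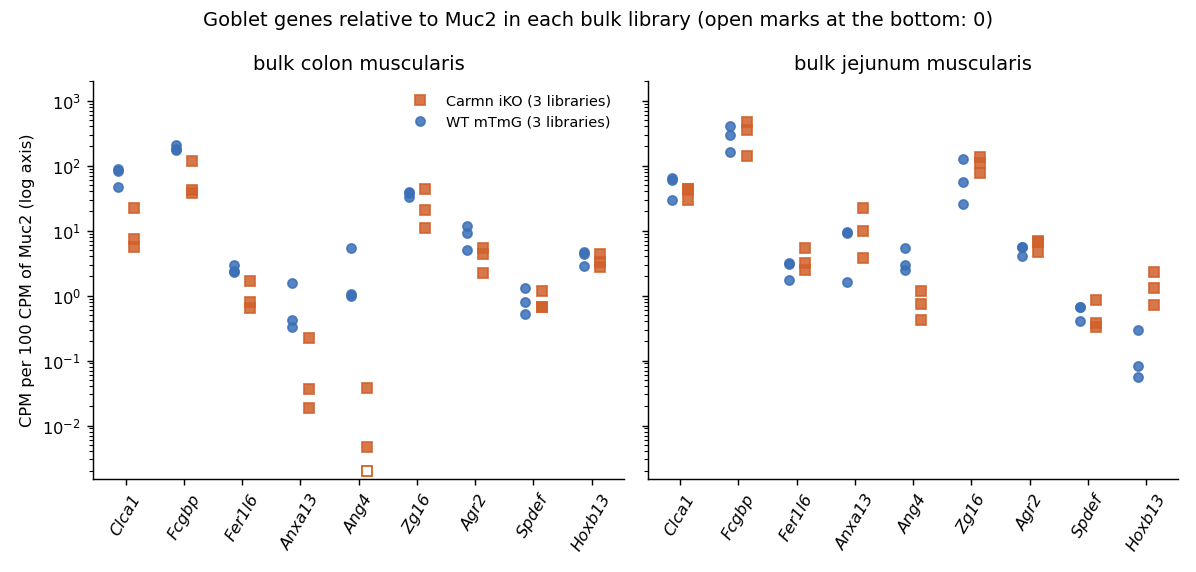
CPM of 9 genes per 100 CPM of Muc2 in each bulk library on a log axis, in colon and jejunum, with circles for the 3 WT libraries and squares for the 3 libraries labelled KO; an open mark at the bottom stands for 0. In colon the squares of Clca1, Fcgbp, Fer1l6, Anxa13 and Ang4 lie below all circles, while in jejunum those of Clca1 and Fcgbp overlap the circles.

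Jejunum did not show the colon pattern for Clca1 or Fcgbp. Per 100 CPM of Muc2, Clca1 was at 44.3, 44.05 and 29.0 in the jejunum libraries labelled KO and at 58.9, 63.4 and 29.4 in WT, with overlap. No goblet-list gene lay below all WT libraries there, against 0.335% of all genes, and Atoh1 and Best2 lay above them, against 1.11%. Per Spdef, per Hepacam2 and per Epcam none lay below either, against 0.326%, 3.07% and 1.69%. Above lay 2 per Spdef (again Atoh1 and Best2), 4 per Hepacam2 (Zg16, Tff3, Bcas1 and Ccl6) and none per Epcam, against 1.15%, 5.36% and 2.16%. The difference between tissues in Clca1 was -2.33 on the log2 scale (SE 1.71, edgeR adjusted p = 0.941), so the tissues were not shown to differ. Ang4 lay below all WT libraries in jejunum too (0.417 to 1.17 against 2.46 to 5.42). Hoxb13, low in this tissue, lay above all WT libraries (0.715 to 2.29 against 0.0552 to 0.299 per 100 CPM of Muc2).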

How the data were processed

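The deposited data of nuclei are 1 count matrix per library, over genes and open regions. The file headers name cellranger-arc-2.0.0, and the regions differ between the libraries. All gene values were even, while 11.6% and 11.5% of region values were odd, so gene values were halved and are called UMIs. That a halved count is 1 molecule is an inference. The submitters' processing notes also name Cell Ranger, STAR 2.0.4b, Subread, featureCounts 1.4.5, edgeR, GRCm38 and mm10, without saying which step each served. Clustering used scanpy 1.11.5 and leidenalg 0.10.2 (2000 variable genes without the 9 rule genes, 30 components, 15 neighbours, resolution 1). With 1 library per genotype no test was made between them. Doublets were not removed. Ratios used genes with at least 10 UMIs in the members or goblet-gene cluster members compared, and a compared class with fewer than 3 UMIs was set to 3.

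The deposited bulk table holds raw counts of reads per gene for 12 libraries, with 40481 genes after 276 repeated entries were dropped. edgeR 4.0.16 under R 4.3.3 gave the main test (filterByExpr, TMM scaling, robust quasi-likelihood fit with 1 mean per group, Benjamini-Hochberg adjustment, threshold 0.05). DESeq2 1.42.0, limma 3.58.1, other scalings and filters, each tissue alone and each library left out were alternatives. On simulated colon counts for 20886 genes, 200 of them changed 4-fold, edgeR called 146 of the 200 and 8 others.

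The members, lists and tests were chosen with earlier results of these data known. The rule named the rule genes, genes of the goblet, crypt, tuft and enteroendocrine lists with at least 10 UMIs in members, leading genes of other lists, the 25 and 15 highest ratios, the 5 highest and 5 lowest between genotypes and bulk list genes that passed. The goblet-gene cluster as a class, the Clca1 split with its 15 genes each way, the ratios to Muc2, Hoxb13 and other genes named beyond the rule were chosen after their values were seen.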

Additional observations from a re-analysis of the deposited data

How the results depend on the processing

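The share of secretory-type nuclei in the WT library, 9.24%, was 16% with at least 1 rule UMI, 8.14% with at least 3, 4.16% without Muc2, 7.01% in epithelial-led clusters alone, 10.8% without nuclei holding at least 5 smooth muscle UMIs and 6.91% in the goblet-gene cluster. In the library labelled KO, 4.07% became 6.49% with 1 UMI, 1.06% without Muc2, 2.89% in epithelial-led clusters and 2.71% in the goblet-gene cluster. Among epithelial-rule nuclei the WT share moved to 89.9% with 1 UMI, 69% without Muc2 and 73% without smooth muscle UMIs, and the other to 56.2% without Muc2. The WT share stayed above the other in each library-wide setting. In bulk, total-count scaling called 26 genes in jejunum, limma voom 76, and each tissue alone 0 in colon and 21 in jejunum. DESeq2 called 960 in colon, 805 in jejunum and 37 for the difference. Leaving out each library gave 7 to 180 genes in colon, 2 to 172 in jejunum and 0 to 1 for the difference. The count of goblet-list genes below all WT libraries, 8 per Muc2, was 2 per Spdef, 0 per Hepacam2 and 2 per Epcam. The cause of these moves was not tested. Capn9, -0.55 in colon on the log2 scale, reversed to 0.5158 by limma voom, and ranged from -1.098 to 0.4172 over the libraries left out. Muc2 ranged from -0.2087 to 1.547 and was -0.02725 without WT t7, and Fer1l6 ranged from -1.679 to 0.1275. Anxa13 passed by DESeq2 (-3.368) and without WT t7 (-3.894).

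With the library tag as a replicate block in limma voom, 94 genes passed in colon, 77 in jejunum and 0 for the difference, and Capn9 was at 0.5152. Same-tag libraries of the tissues correlated at -0.241 to 0.123 over 5 pairs, and different-tag pairs at -0.469 to 0.43. Whether a tag stands for 1 animal cannot be told from so few pairs. The 46 goblet-gene cluster members labelled KO held 77870 UMIs in all, at a median of 1157.5. The 196 in WT held 384978, at a median of 1385. Goblet-gene levels labelled KO rest on the smaller total.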
